A study of Caenorhabditis elegans with 27 samples.

Results

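Caenorhabditis elegans hermaphrodites kept for 3 days with a high or a low dose of a humic substance were compared directly with each other. The 3 arrays of worms with 2.0 mM HuminFeed (HF), a preparation of humic substances, were set against the 3 arrays of worms with 0.2 mM HF, where the dose is dissolved organic carbon. These are 6 of the 27 arrays of a study that also held untreated worms, worms kept with HF to an age of 11 days, and worms given HuminFeed-Hydroquinone (HF-HQ) at the same doses. All groups used here were of strain GE24, which carries pha-1(e2123), a temperature-sensitive allele of a gene needed for the embryonic pharynx. The parents had been kept on the same dose at 15 °C. First-stage larvae were then collected by filtration and raised at 25 °C, with fresh HF given with the bacterial food, until whole worms were harvested. The 2.0 mM, 0.2 mM and untreated groups differed only in the dose named. The design calls the worms adults, while the age tag of the samples reads fourth-stage larvae. Each condition was cultivated in triplicate. Whether the 3 arrays of a group come from separate populations is not stated, and the p-values then measure only the spread between these arrays, which may be technical.

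Of 22625 probe sets, 77 were array controls. The remaining 22548 were kept where the log2 expression value was over 5 in at least 3 of the 6 arrays, which left 9315 probe sets that stood for 7186 genes. The last probe set inside had a third-highest value of 5.0001 and the first outside 4.9989. Of the probe sets that passed, 55 did so only through the 2.0 mM arrays and 129 only through the 0.2 mM arrays. Between 9149 and 9279 probe sets per array were over log2 5, and correlations between arrays of one group were 0.9943 to 0.9979. The 5′ minus 3′ signals of the ubiquitin, actin and Gapdh control probe sets, which fall with RNA degradation, averaged -3.035, -1.251 and -0.678 at 2.0 mM and -3.099, -1.403 and -0.632 at 0.2 mM. Their part in the results was not tested. Adult markers were high at both doses: col-19, a collagen gene of the adult cuticle, had 12.70, 12.60 and 12.66 at 2.0 mM and 12.64, 12.65 and 12.65 at 0.2 mM. The moulting gene mlt-10 reached at most 2.32 in these arrays. Markers of gut, body wall muscle, neurons, germ line and oocytes were measured, while myo-3, myo-1, myo-2, dpy-7, rol-6, spe-9, noah-1 and unc-122 did not pass the filter.

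Hermaphrodites of this species make sperm for a limited time late in larval life and then switch to oocytes, so that sperm transcripts come from spermatocytes of a short period. Mature sperm are not transcribing, and they crawl with a cytoskeleton of major sperm protein (MSP), which is encoded by a large family of near-identical genes. Worms also live in contact with the bacteria they eat. Their gut makes lysozymes, C-type lectin-like proteins and saposin-like proteins, and their epidermis makes short antimicrobial peptides and the collagens of the cuticle.

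Genes of sperm were lower at 2.0 than at 0.2 mM, the MSP family throughout. In the dose contrast 997 of 7186 genes (13.9%) were called higher and 589 (8.2%) lower at 2.0 mM, at an adjusted p under 0.05 in limma (Benjamini-Hochberg, n = 3 per group). Larger differences lay mostly on one side: 36 genes (0.501%) were at least 2-fold higher and 235 (3.27%) at least 2-fold lower. Of those 235 genes, 51 belonged to the 3 sperm lists described below and 120 had no name beyond that of their sequence. The median difference over all genes was 0.05 on the log2 scale. In probe sets these were 1199 higher (12.9%) and 751 lower (8.06%), or 20.9% in all, with 44 (0.472%) and 305 (3.27%) at least 2-fold. The count of higher probe sets was 589 without array 1 of 0.2 mM, 616 without array 3 of 2.0 mM, 715 without array 2 of 0.2 mM and 710 with a replicate block. All arrays of 2.0 mM lay above all of 0.2 mM in 24.9% of probe sets and 26.5% of genes, and below in 13.6% of probe sets. The untreated mean lay between the means of the doses in 227 of the 235 genes that were at least 2-fold lower. The same held for 13 of the 36 genes that were at least 2-fold higher. Genes chosen for a wide gap between the doses are more likely to have the untreated mean inside that gap. The share over all genes was not determined, so no ordering of the doses is concluded from these counts.

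All 23 MSP genes were called lower at 2.0 mM, with a median log2 difference of -1.61. The median level of the family was 10.57, 10.58 and 10.61 in the 2.0 mM arrays and 12.21, 12.26 and 12.09 in the 0.2 mM arrays. It was 11.81, 11.66 and 11.74 in the untreated arrays, so that the family had its lowest level at 2.0 mM and its highest at 0.2 mM. In each of the 23 genes every array of 2.0 mM lay below every array of 0.2 mM, which held for 991 of all 7186 genes (13.8%). The differences ranged from -2.15 for msp-142 to -1.39 for msp-55. The msp-142 transcript had 8.65, 9.03 and 8.89 at 2.0 mM and 11.09, 10.98 and 10.95 at 0.2 mM, a log2 difference of -2.15 ± 0.10 (SE; adjusted p = 4.1e-06), or 4.44-fold lower. The transcript of msp-31, one of the most abundant of the family, had 11.63, 11.70 and 11.81 against 13.27, 13.33 and 13.32, a difference of -1.60 ± 0.07 (adjusted p = 2.6e-06). Only 1 of the 23 genes was measured by a probe set with no mark of shared sequence, so that the family's probe sets pick up the same transcripts in part and do not give 23 independent results. In RNA of whole worms, fewer cells of a type and less RNA per cell cannot be told apart.

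**Figure D1:**
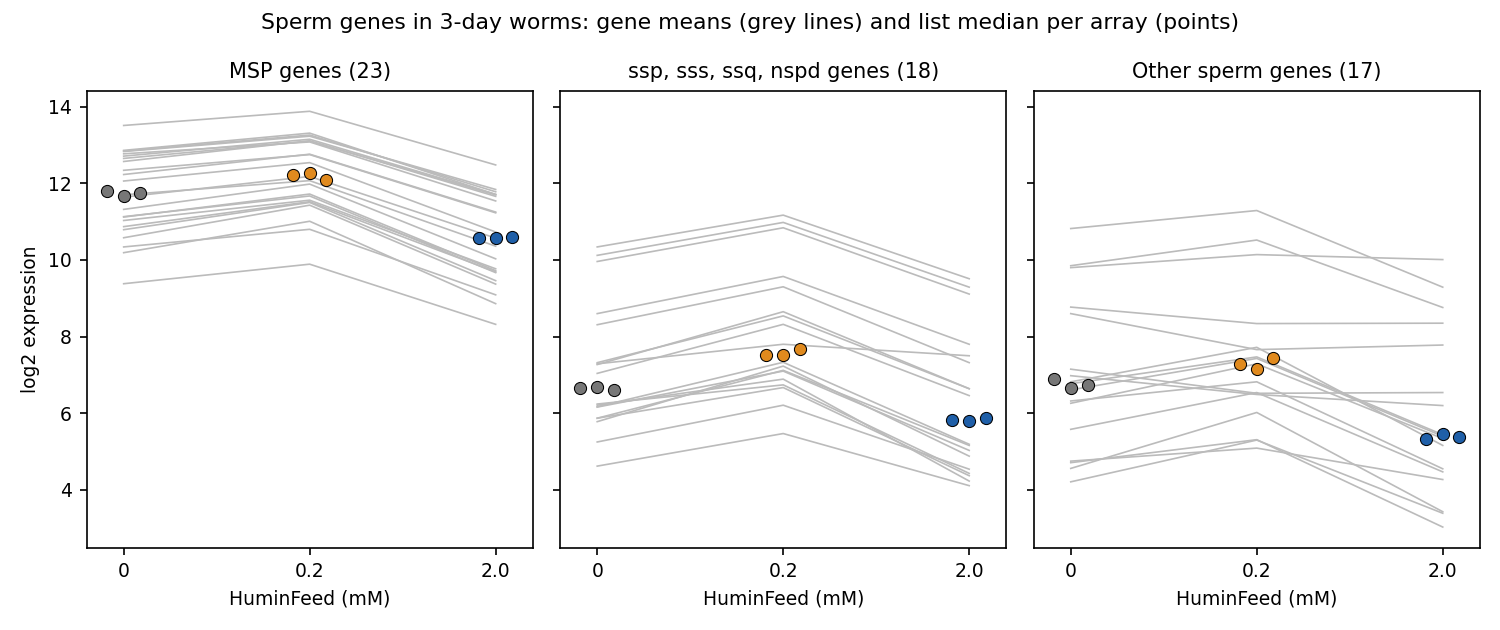
Log2 expression (vertical axis) at 0, 0.2 and 2.0 mM HF (horizontal axis) for the genes of 3 sperm lists, with a grey line for the mean of each gene over 3 arrays and a point for the list's median in each array. The medians of the 3 arrays of a dose lie close together, and those at 2.0 mM lie below those of the other doses in each list.

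Small sperm families were lower as well. The ssp and ssq genes are sperm-specific families, ssp of short proteins with an MSP-like domain, and nspd genes encode short nematode-specific peptides. Of 20 such genes on the array 18 were tested, 17 were called lower, with a median of -1.93. Here 5 of the 18 had passed the filter through 1 dose only. Over all 20 genes with no filter 16 were lower and the median was -1.88. The largest difference was that of ssp-16, with 4.13, 3.95 and 4.61 at 2.0 mM and 6.85, 6.83 and 6.99 at 0.2 mM, a log2 difference of -2.66 ± 0.16 (adjusted p = 1.5e-05). The abundant nspd-4 had 9.38, 9.65 and 9.50 against 11.18, 11.13 and 11.21, a difference of -1.66 ± 0.08 (adjusted p = 4.1e-06). All arrays of 2.0 mM lay below those of 0.2 mM in both genes. The exception was ssp-37, at -0.30 ± 0.11 (adjusted p = 0.107).

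Of 43 other sperm genes on the array only 17 were tested, because 26 did not reach the filter, among them the sperm surface gene spe-9 and the MSP assembly kinase gene spe-6. Of the 17 genes 12 were called lower and 5 were not called, with a median of -1.95. Their count depends on the filter, since 6 had passed through 1 dose only: with no filter 16 of all 43 were lower, the others were not called and the median was -0.22. The protein phosphatase gene gsp-3 had 4.94, 5.17 and 5.39 at 2.0 mM and 7.55, 7.72 and 7.88 at 0.2 mM, a log2 difference of -2.55 ± 0.13 (adjusted p = 6e-06). Its close relative gsp-4 differed by -2.03 ± 0.06 (adjusted p = 8e-07). The comp-1 gene, which acts in competition between sperm, had 3.36, 3.58 and 3.36 against 6.24, 6.02 and 5.80 (-2.59 ± 0.12, adjusted p = 3.8e-06).

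Of further members of this list, some were well measured at both doses and some at 0.2 mM only. The MSP-domain gene msd-2 had 9.30, 9.27 and 9.29 at 2.0 mM and 11.23, 11.32 and 11.34 at 0.2 mM (-2.01 ± 0.06, adjusted p = 7.7e-07). The sperm histone H2A gene htas-1, which was over log2 5 in all 6 arrays as well, differed by -2.03 ± 0.10 (adjusted p = 5e-06). The PDZ domain gene smz-1 and spe-11, which encodes a protein that the sperm brings into the egg, differed by -2.27 ± 0.14 and -2.08 ± 0.17 (adjusted p = 2e-05 and 0.00011). Like comp-1, both were under log2 5 in every 2.0 mM array and had passed the filter through 0.2 mM only. The same holds for the sperm chromatin gene spch-1, which was in no list and stood among the 15 lowest genes, with 3.57, 3.71 and 4.23 against 6.67, 6.55 and 6.69 (-2.80 ± 0.16, adjusted p = 1.1e-05).

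Among the 5 sperm genes that were not called, the transcript of spe-44, which encodes a transcription regulator that acts at the start of the sperm programme, had 6.53, 6.55 and 6.54 at 2.0 mM and 6.57, 6.45 and 6.53 at 0.2 mM, a log2 difference of 0.02 ± 0.06 (adjusted p = 0.814). The vesicle transport gene spe-39 had a difference of 0.11 ± 0.07, the proton pump subunit gene spe-5 one of -0.29 ± 0.09, the protease inhibitor gene swm-1 one of -0.13 ± 0.05, and spe-48 one of 0.01 ± 0.06 (adjusted p = 0.333, 0.068, 0.138 and 0.955). In spe-44 the arrays of both doses overlapped.

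**Figure D2:**
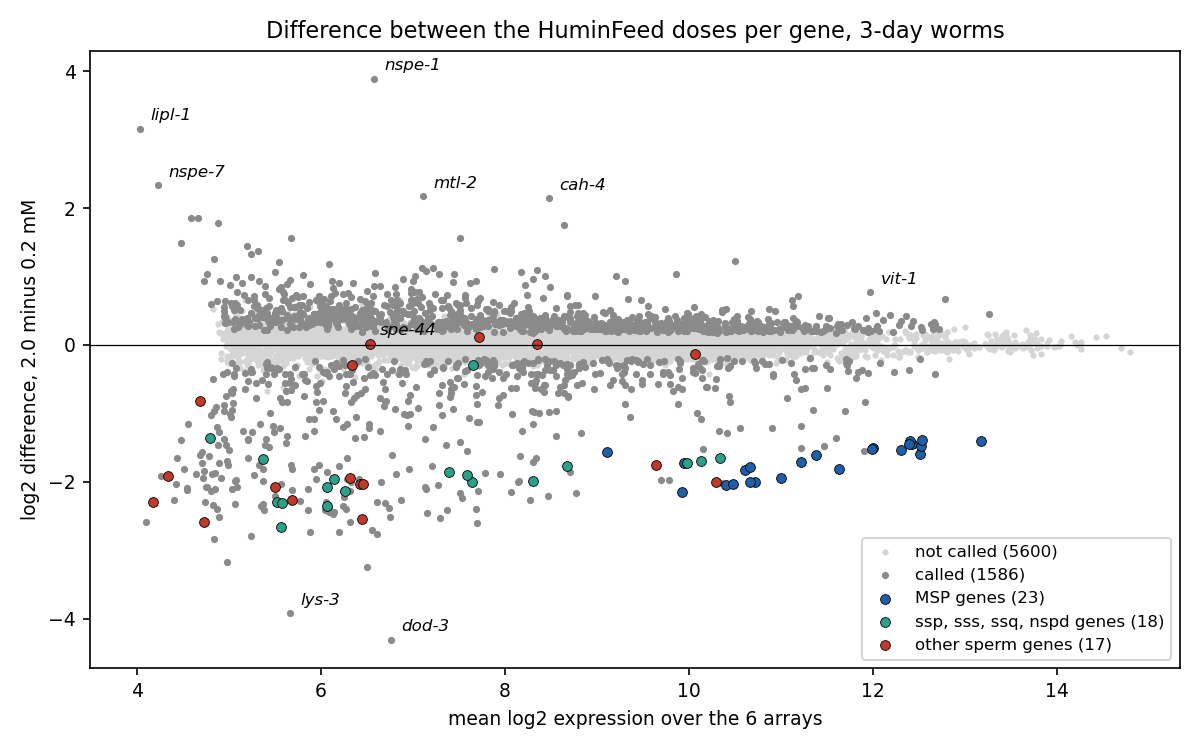
Log2 difference between 2.0 and 0.2 mM HF at 3 days (vertical axis) against the mean log2 expression over the 6 arrays (horizontal axis) for 7186 genes, with the 3 sperm lists in colour. MSP genes form a tight group between -2.15 and -1.39 at high expression, while spe-44 lies at 0.02, and dod-3 and nspe-1 mark the ends of the range.

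The other lists of the germ line had shares of higher genes on either side of the 13.9% over all genes. Their shares of lower genes were all under the 8.2% over all genes. Of 18 sex determination genes, which decide between sperm and oocyte, 1 was higher and 1 lower (median 0.04). The translation regulator gene fbf-1, which promotes the switch to oocytes, was lower (-0.38 ± 0.11, adjusted p = 0.0389) and the RNA helicase gene mog-1 higher (0.27 ± 0.06, adjusted p = 0.0131). The call of fbf-1 held in 7 of 15 alternative settings only. Of 51 oocyte and germ line genes 3 were higher and 2 lower (median 0.03), and the oocyte genes oma-1 and pos-1 had differences of 0.01 ± 0.06 and 0.02 ± 0.08 (adjusted p = 0.941 and 0.904). Of 77 cell cycle and DNA replication genes 5 were higher and 1 lower (median 0.04). Among 33 meiosis genes 6 (18.2%) were higher and the others not called, with differences up to 0.37. Among 15 eggshell genes 3 (20%) were higher and the others not called, led by perm-2 (0.31 ± 0.06, adjusted p = 0.00734).

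Of the 5 yolk protein genes 1 was called. The vit-1 transcript had 12.50, 12.21 and 12.35 at 2.0 mM and 11.66, 11.65 and 11.43 at 0.2 mM, a log2 difference of 0.77 ± 0.10 (adjusted p = 0.0012). The arrays of the doses did not overlap. The other yolk genes had differences of 0.12 to 0.14 (adjusted p = 0.344 for vit-2, 0.235 for vit-4, 0.184 for vit-5 and 0.13 for vit-6). Yolk genes have similar sequences, so that probe sets can share signal among them. The differences of the 74 cytosolic ribosomal protein genes lay between -0.10 and 0.09.

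The lysozymes, which break down bacterial cell walls, split in direction. Of 16 genes on the array 12 were tested, of which 4 (33.3%) were higher, 4 (33.3%) lower and 4 not called, against 13.9% higher and 8.2% lower over all genes. The lys-3 transcript had 3.76, 3.69 and 3.67 at 2.0 mM and 7.57, 7.82 and 7.47 at 0.2 mM, a log2 difference of -3.92 ± 0.09 (adjusted p = 5.7e-07). Its 2.0 mM arrays were all under log2 5, so that it had passed the filter through 0.2 mM only and the size of its difference depends on the background correction. The abundant lys-2 had 10.97, 10.87 and 10.92 against 12.23, 12.35 and 12.26 (-1.36 ± 0.06, adjusted p = 3.8e-06). Both genes were lower in every 2.0 mM array, and lys-1 and lys-6 were lower by -0.83 ± 0.09 and -0.75 ± 0.07 (adjusted p = 0.00049 and 0.00016). The lys-10 transcript had 9.67, 9.22 and 9.66 at 2.0 mM and 7.77, 7.75 and 7.77 at 0.2 mM, a difference of 1.76 ± 0.12 (adjusted p = 3.3e-05). The invertebrate-type lysozyme gene ilys-3 had 8.73, 8.85 and 8.76 against 7.89, 7.76 and 7.79 (0.97 ± 0.06, adjusted p = 2.9e-05), and lys-5 and lys-7 were higher by 0.86 ± 0.10 and 0.50 ± 0.07 (adjusted p = 0.00081 and 0.00274). In untreated worms ilys-3 had 5.41, 5.62 and 5.73, below both doses, while lys-2 had 11.75, 11.79 and 11.75, between the doses. The lys-4, lys-8, ilys-4 and ilys-5 genes were not called, with differences of 0.02 ± 0.06, -0.19 ± 0.06, -0.03 ± 0.08 and 0.17 ± 0.06.

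The C-type lectin-like genes, whose products bind sugars and of which many respond to infection, were divided as well. Of 45 tested genes 12 (26.7%) were higher and 15 (33.3%) lower, against 13.9% and 8.2% over all genes, and 5 each were at least 2-fold. The clec-190 transcript had 5.78, 5.21 and 6.32 at 2.0 mM and 4.18, 4.19 and 3.60 at 0.2 mM (1.78 ± 0.28, adjusted p = 0.00373). With all 0.2 mM arrays under log2 5, it had passed the filter through 2.0 mM only. The clec-86 transcript had 8.23, 8.21 and 8.45 against 6.77, 6.80 and 6.61 (1.57 ± 0.09, adjusted p = 1.1e-05). In the other direction clec-72, clec-4 and clec-67 were lower, by -2.08 ± 0.11, -1.86 ± 0.12 and -1.61 ± 0.08 (adjusted p = 1e-05, 2.5e-05 and 5.8e-06). The clec-67 transcript had 6.13, 5.89 and 5.88 at 2.0 mM and 7.60, 7.59 and 7.53 at 0.2 mM. With 5.74, 5.69 and 6.01 in untreated worms, its level was highest at 0.2 mM.

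The short antimicrobial peptide genes were higher where they were called. Of 13 tested genes of the caenacin, fip and nlp types, 7 (53.8%, against 13.9% over all genes) were higher and 6 not called, with a median of 0.21. Only 2 of the 13 had a probe set with no mark of shared sequence, so that these are not 13 independent results. The caenacin gene cnc-3 had 5.76, 5.96 and 6.03 at 2.0 mM and 4.46, 4.44 and 4.51 at 0.2 mM (1.45 ± 0.08, adjusted p = 1e-05). Its 0.2 mM arrays were all under log2 5, and it was 1 of 2 genes of this list that had passed the filter through 2.0 mM only. The epidermal peptide gene nlp-28 had 9.73, 9.71 and 9.70 against 8.89, 8.71 and 8.51 (1.01 ± 0.09, adjusted p = 0.00022), and nlp-29 was higher by 0.59 ± 0.09 (adjusted p = 0.00267). Saposin-like genes, which encode pore-forming proteins of the gut, were higher in 5 of 12 cases (41.7%) and lower in 1 (8.33%), spp-27 (-1.90 ± 0.23, adjusted p = 0.00098). Of 9 infection response and CUB-like genes 5 were not called and 4 were lower (44.4%, against 8.2% over all genes). Among the lower were irg-8 (-0.95 ± 0.06, adjusted p = 3e-05) and hpo-6 (-1.42 ± 0.06, adjusted p = 3.5e-06).

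Collagens of the cuticle leaned to lower values at 2.0 mM. Of 147 genes on the array 63 were tested, of which 4 (6.35%) were higher, 23 (36.5%) lower and 36 not called, with a median of -0.22. Shares over all genes were 13.9% higher and 8.2% lower. The family median was 10.56, 10.57 and 10.63 in the 2.0 mM arrays and 11.00, 10.91 and 11.00 in the 0.2 mM arrays, and the untreated arrays had 10.48, 10.42 and 10.57, close to 2.0 mM. The col-81 transcript had 9.29, 9.51 and 9.39 at 2.0 mM and 10.86, 10.88 and 11.00 at 0.2 mM, a log2 difference of -1.52 ± 0.08 (adjusted p = 5.9e-06). The abundant col-139 had 10.60, 10.72 and 10.88 against 12.18, 12.19 and 12.27 (-1.48 ± 0.08, adjusted p = 1e-05). Arrays of the doses were apart in both genes. The most abundant uncalled member, col-124, had a difference of -0.10 ± 0.06 (adjusted p = 0.258). Leaving out array 1 of 0.2 mM left 15 lower genes. Over all 147 genes with no filter 17 were lower, 4 higher and the median was -0.02.

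**Figure D3:**
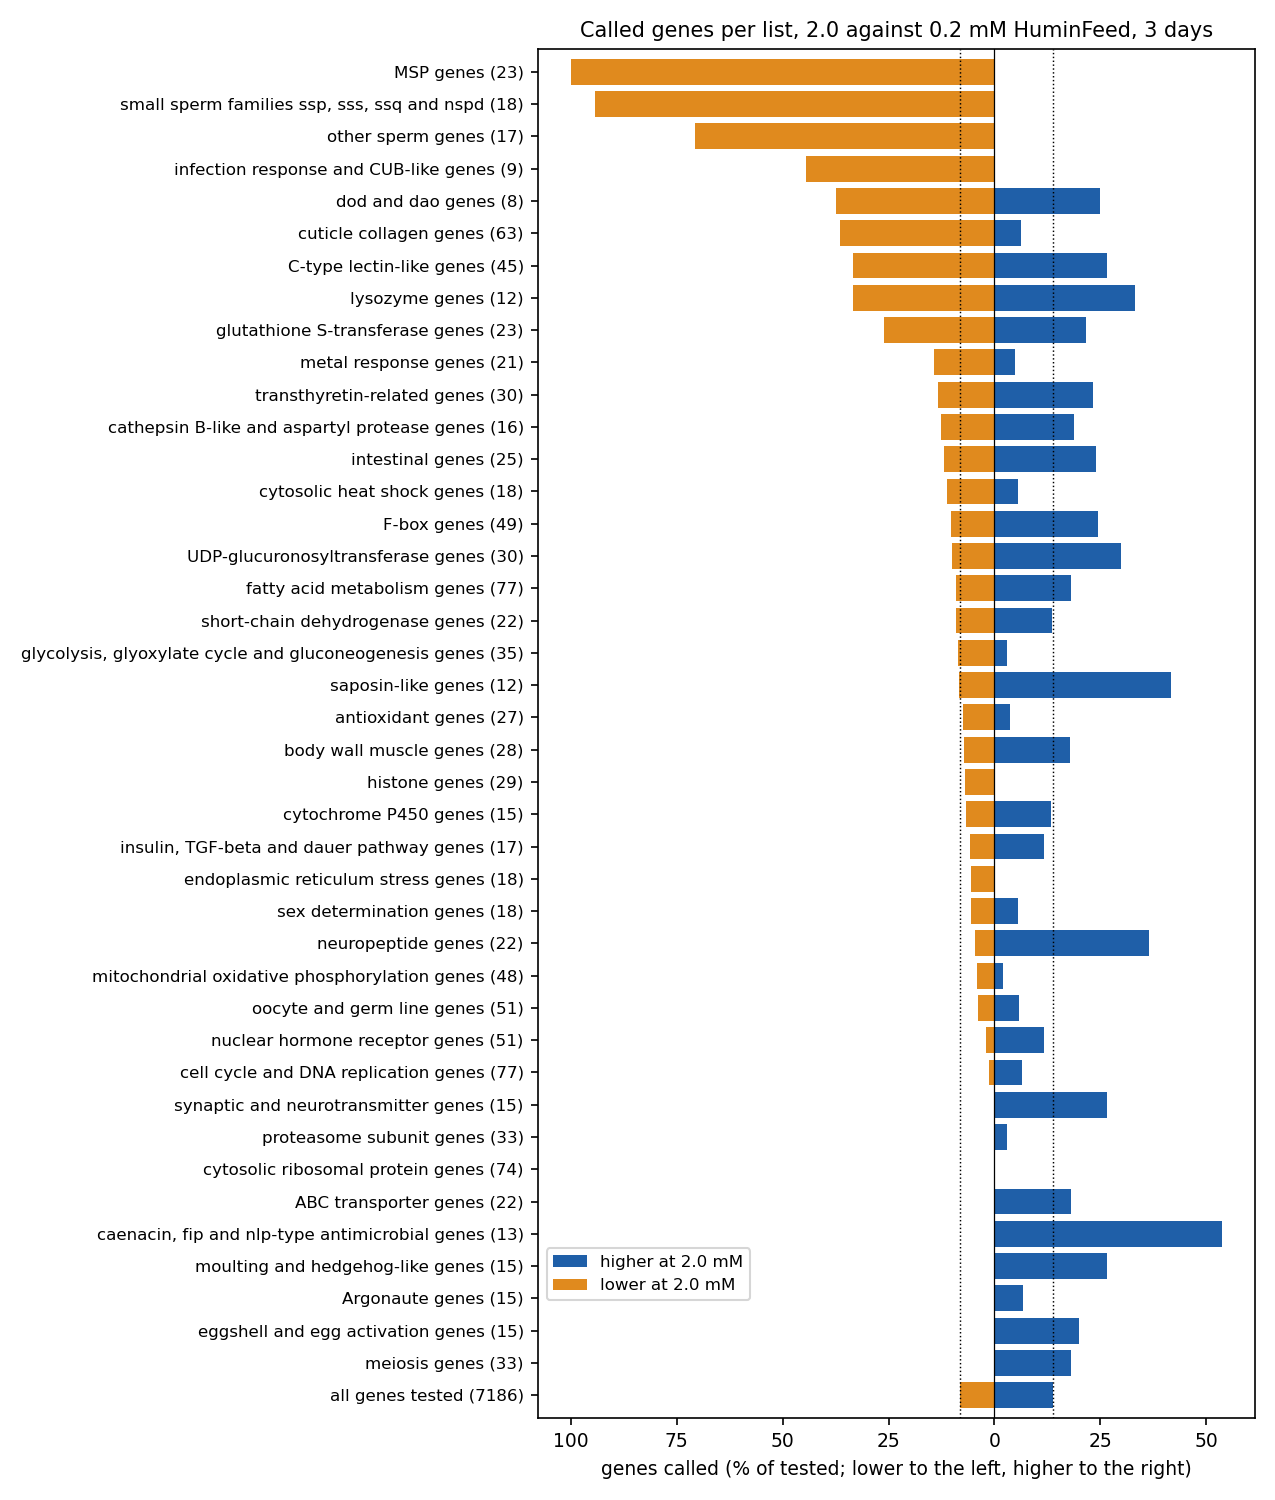
Percent of tested genes called higher (right) or lower (left) at 2.0 mM HF for gene lists with at least 8 tested genes, whose number stands in brackets. Dotted lines mark the 13.9% higher and 8.2% lower over all genes, and the 3 sperm lists at the top extend farthest to the left, at 100% for the MSP genes.

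Single genes showed the widest range. The dod-3 gene, named as lying downstream of the insulin pathway factor DAF-16, had 4.71, 4.12 and 4.98 at 2.0 mM and 8.90, 8.90 and 8.94 at 0.2 mM. Its log2 difference of -4.31 ± 0.19 (adjusted p = 3.8e-06) was the lowest of all genes tested. All its 2.0 mM arrays were under log2 5, so that it had passed the filter through 0.2 mM only, which bears on the size of the difference and on its rank. Untreated worms had 7.90, 7.82 and 7.99, so that the 2.0 mM arrays stood apart from both other groups. Of 8 dod and dao genes tested 2 (25%) were higher, 3 (37.5%) lower and 3 not called, against 13.9% higher and 8.2% lower over all genes. The dod-19 and dod-24 genes were lower too, by -1.29 ± 0.08 and -0.35 ± 0.06 (adjusted p = 1.6e-05 and 0.00727), and dod-6 and dod-18 were higher, by 0.45 ± 0.07 and 0.29 ± 0.06 (adjusted p = 0.0041 and 0.0116). The acyl-CoA dehydrogenase gene acdh-8, of fatty acid breakdown, had 5.34, 5.64 and 5.60 against 7.73, 7.85 and 7.94 (-2.31 ± 0.10, adjusted p = 2.7e-06). Another member of that family, acdh-2, was higher, by 1.11 ± 0.08 (adjusted p = 5.5e-05). The tetraspanin gene tsp-2 was lower by -2.77 ± 0.19 and the nematode-specific peptide gene nsph-3.1 by -2.60 ± 0.10 (adjusted p = 3e-05 and 2e-06). The other genes among the 15 lowest, F22B5.5, F36A4.2, F20G2.5, C31H1.5, F17E9.5, T16A9.5, C15C6.2 and R148.7, had differences between -3.24 and -2.59 and carry no name in the annotation used. All but C15C6.2 and T16A9.5 of these were under log2 5 in every 2.0 mM array.

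Among the genes that were higher, nspe-1, of a family of short nematode-specific peptides, led with 8.44, 8.51 and 8.64 at 2.0 mM and 4.60, 4.66 and 4.65 at 0.2 mM, a log2 difference of 3.89 ± 0.07 (adjusted p = 2.9e-07). Its 0.2 mM arrays were all under log2 5, so that it had passed the filter through 2.0 mM only. Untreated worms had 8.44, 8.28 and 8.40, so that the 0.2 mM arrays were the ones that stood apart. The nspe-7 gene, which had also passed through 2.0 mM only, was lowest at 0.2 mM too, with 5.60, 5.14 and 5.45 at 2.0 mM and a mean of 3.06 at 0.2 mM (2.34 ± 0.11, adjusted p = 4.9e-06). Its mean in untreated worms was 5.89, above that of 2.0 mM. Of this family nspe-3, nspe-4 and nspe-5 did not pass the filter, and of the neighbouring family nspa-9 was lower (-1.96 ± 0.17, adjusted p = 0.00014). A different order was seen for lipl-1, which encodes a lysosomal lipase. It had 5.24, 5.85 and 5.75 at 2.0 mM and 2.70, 2.28 and 2.36 at 0.2 mM (3.16 ± 0.17, adjusted p = 1e-05). Untreated worms had 2.46, 2.35 and 2.38, the level of 0.2 mM. The low levels of these 3 genes lie near the floor of the scale, where the size of a difference depends on the background correction. The lipl-4 lipase gene was lower, by -0.95 ± 0.17 (adjusted p = 0.00734).

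The metallothionein gene mtl-2, whose product binds metals, had 8.04, 8.10 and 8.45 at 2.0 mM and 5.88, 6.05 and 6.15 at 0.2 mM, a log2 difference of 2.17 ± 0.12 (adjusted p = 1.1e-05). Untreated worms had 6.14, 5.74 and 6.16, the level of 0.2 mM. Its other probe sets had differences of 2.25 and 1.50, and mtl-1 did not pass the filter. Other metal response genes did not share this: of 21 tested, mtl-2 was the only 1 called higher. The 3 lower genes (14.3%, against 8.2% over all genes) included the cadmium-responsive gene cdr-4 (-0.96 ± 0.07, adjusted p = 4e-05). The ferritin gene ftn-2 had a difference of 0.09 ± 0.06 (adjusted p = 0.358). The carbonic anhydrase gene cah-4 had 9.44, 9.64 and 9.56 against 7.34, 7.31 and 7.56 (2.15 ± 0.09, adjusted p = 2.5e-06). In untreated worms cah-4 had 8.46, 8.42 and 8.60, between the doses.

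**Figure D4:**
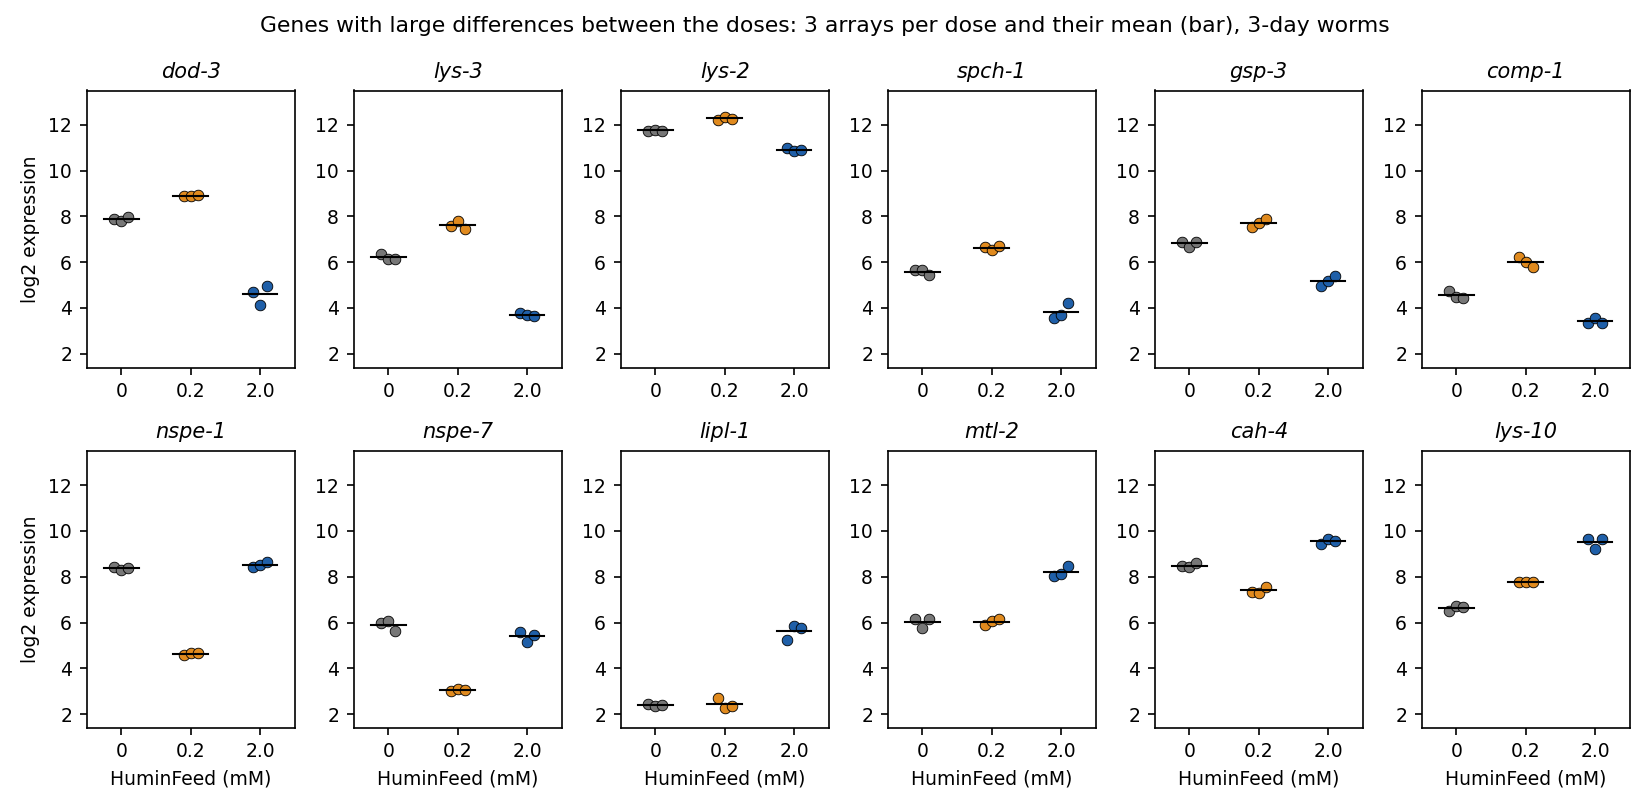
Log2 expression (vertical axes) of 12 genes at 0, 0.2 and 2.0 mM HF (horizontal axes), with a point for each array and a bar for the mean of 3. The genes dod-3 and lys-3 are low at 2.0 mM, nspe-1 and nspe-7 are low at 0.2 mM, and lipl-1 and mtl-2 are high at 2.0 mM.

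Detoxification enzymes were mixed. Of 30 tested UDP-glucuronosyltransferase genes, whose products attach sugars to foreign compounds, 9 (30%) were higher and 3 (10%) lower (median 0.13). Over all genes 13.9% were higher and 8.2% lower. The ugt-25 transcript had 5.78, 5.36 and 5.65 at 2.0 mM and 3.98, 3.93 and 3.29 at 0.2 mM (1.86 ± 0.19, adjusted p = 0.00039), and ugt-2 was higher by 1.04 ± 0.10 (adjusted p = 0.00025). All 0.2 mM arrays of ugt-25 were under log2 5, so that it had passed the filter through 2.0 mM only. Of 23 glutathione S-transferase genes 5 (21.7%) were higher and 6 (26.1%) lower, with gst-22 at -0.98 ± 0.09 (adjusted p = 0.00014). The cytochrome P450 genes had called shares near those over all genes (13.9% higher and 8.2% lower): of 15, 2 (13.3%) were higher, cyp-35C1 (1.13 ± 0.10, adjusted p = 0.00015) and cyp-34A8 (0.76 ± 0.12, adjusted p = 0.00373), and 1 (6.67%), cyp-35A2, was lower (-0.44 ± 0.06, adjusted p = 0.00204). The superoxide dismutase gene sod-3 was lower by -0.77 ± 0.09 (adjusted p = 0.00066), 1 of 2 lower and 1 higher among 27 antioxidant genes. Of 18 cytosolic heat shock genes 1 (5.56%) was higher, 2 (11.1%) were lower and 15 were not called (median 0.06). Among the lower was hsp-12.3, which encodes a small heat shock protein (-1.02 ± 0.09, adjusted p = 0.00018).

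Neuropeptide genes were higher in 8 of 22 cases (36.4%, against 13.9% over all genes) and lower in 1 (4.55%, against 8.2%), with a median of 0.15. The flp-6 transcript had 7.96, 8.05 and 8.20 at 2.0 mM and 7.20, 7.14 and 7.18 at 0.2 mM (0.90 ± 0.07, adjusted p = 0.0001), and flp-18 was higher by 0.83 ± 0.09 (adjusted p = 0.00043). Synaptic genes were higher in 4 of 15 cases (26.7%) and the others were not called, with differences up to 0.42 for unc-119 (adjusted p = 0.00337). Among 28 body wall muscle genes 5 (17.9%) were higher and 2 (7.14%) lower, near the 13.9% and 8.2% over all genes. Among 25 intestinal genes 6 (24%) were higher and 3 (12%) lower, with the water channel gene aqp-8 at 1.10 ± 0.07 (adjusted p = 2.3e-05). The mitochondrial oxidative phosphorylation list had 1 higher and 2 lower of 48, but its cytochrome c gene cyc-2.2 was lower by -1.82 ± 0.14 (adjusted p = 5.5e-05).

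The dose contrast was set against the same contrast in 2 other experiments, with the difference of the contrasts tested in limma. The upper quartile of an array was 7.46 to 7.53 in the 3-day HF experiment. It was 7.36 to 7.43 in the 11-day experiment and 9.29 to 9.39 in the HF-HQ experiment, so levels were not compared between experiments, only dose differences. At 11 days 1107 genes (15.4%) were called higher and 1445 (20.1%) lower at 2.0 mM, and with HF-HQ 538 (7.49%) and 521 (7.25%). In probe sets these were 15.9% and 18.7% at 11 days, and 7.8% and 6.71% with HF-HQ. Centring each array on its median gave 2213 probe sets above HF-HQ and 950 below, against 1574 (16.9%) and 1085 (11.6%). Against 11 days they were 22.9% and 13.1%. The dose difference at 3 days was above that at 11 days in 1817 genes (25.3%) and below in 960 (13.4%), and above that of HF-HQ in 1368 (19%) and below in 823 (11.5%).

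The MSP genes differed between the ages. At 11 days 4 of 23 were higher at 2.0 mM and 19 not called, while 15.4% of all genes were higher and 20.1% lower there. The median difference of the MSP genes at 11 days was 0.22, against the median of -1.61 at 3 days. The dose difference at 3 days was below that at 11 days in all 23 genes, against 13.4% of all genes. With HF-HQ 22 of 23 MSP genes were lower at 2.0 mM, against 7.25% of all genes, with a median of -1.08. The dose difference with HF was further below in 10 MSP genes and not called in 13, while it was below in 11.5% of all genes. For msp-142 the dose difference at 3 days minus that at 11 days was -2.17 ± 0.14 (adjusted p = 2.8e-07). Its means at 11 days were 5.38 at 2.0 mM and 5.36 at 0.2 mM, only just over log2 5. At 11 days 20 of the 23 MSP genes were over log2 5 in at least 3 of the 6 arrays. These 20 had a median of 0.23 at 11 days and -1.60 at 3 days, and the difference was called in all 20. Of the small sperm families and other sperm genes only 4 of 18 and 5 of 17 were over log2 5 in at least 3 of the 6 arrays at 11 days. With HF-HQ these were 6 of 18 and 8 of 17, so that most were near the floor there.

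Collagens and lysozymes also differed. Shares over all genes were 15.4% higher and 20.1% lower at 11 days, and 7.49% and 7.25% with HF-HQ. Of 63 collagen genes 24 were higher and 1 lower at 11 days (median 0.20), and with HF-HQ 42 were lower (median -0.51). Their dose difference at 3 days with HF was below that at 11 days in 44 genes, and above that of HF-HQ in 32 and below in 5. Over all genes these shares were 13.4%, 19% and 11.5%. Only 36 of the 63 collagen genes passed the log2 5 filter when it was applied to the arrays of 11 days. These 36 had a median of 0.26 at 11 days and -0.06 at 3 days, and the contrast at 3 days was below that at 11 days in 21 of them. Of 12 lysozyme genes 7 were higher with HF-HQ and 5 not called, and the dose difference of HF was below that of HF-HQ in 10. The ilys-3 transcript was 6.64 ± 0.15 higher at 2.0 than at 0.2 mM HF-HQ, against 0.97 ± 0.06 with HF. Its mean at 0.2 mM HF-HQ was 3.57, under log2 5, where the size of a difference depends on the background correction. Of 51 oocyte and germ line genes 36 were higher and 2 lower at 11 days, and the dose difference at 3 days was below that at 11 days in 20 and above in 1.

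**Figure D5:**
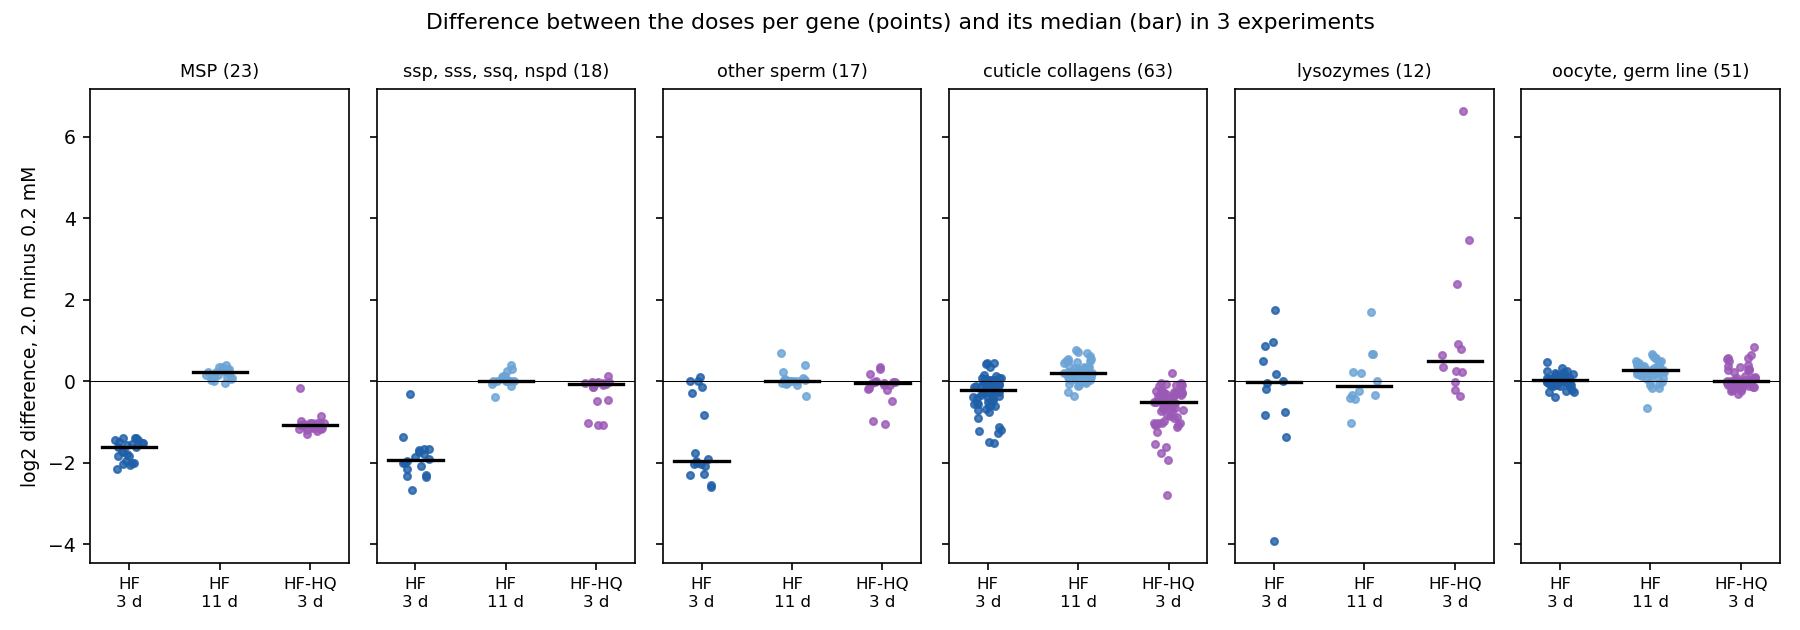
Log2 difference between 2.0 and 0.2 mM (vertical axis) for the genes of 6 lists (points) and their median (bar), with HF at 3 days, HF at 11 days and HF-HQ at 3 days. The MSP medians are -1.61, 0.22 and -1.08, and the medians of the other sperm lists are close to 0 outside HF at 3 days, where most of these genes were under log2 5.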

How the data were processed

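Affymetrix C. elegans arrays of whole worms were used, and the deposited values were log2 expression per probe set, made by the authors with GCRMA per the submitters' processing notes, whose version is not given in the sources used here. GCRMA corrects the background, normalizes arrays and summarises probes, so that values near the floor of its scale have compressed or inflated differences. No further normalization was applied. The arrays' number limits the precision. Array controls were left out, and probe sets with log2 over 5 in at least 3 of the 6 arrays were fitted with limma 3.58.1 in R 4.3.3 (moderated variance, 2-sided, Benjamini-Hochberg over 9315 probe sets, called at adjusted p under 0.05). Of these 8889 had 1 gene symbol, 300 several and 126 none, and 99.7% of the first matched RefSeq's WBcel235 annotation. A gene with several probe sets was represented by the one with the highest mean over the 6 arrays. Differences of the dose contrast used 12 arrays. Plots used matplotlib 3.10.9 under Python 3.11.15.

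The comparison and the 49 gene lists were chosen with earlier results of these data known. Named genes were the 15 largest differences each way among called probe sets of 1 symbol with non-overlapping arrays, up to 4 called genes and 1 uncalled gene per list, the lysozyme, nspe, yolk and metallothionein genes, and the 6 largest each way per difference of contrasts, of which a selection is printed. Further members of a described list (msp-31, msp-55, nspd-4, ssp-37, msd-2, gsp-4, htas-1, spe-11, spe-5, spe-39, spe-44, spe-48, swm-1, nlp-29 and dod-18) and the other mtl-2 probe sets were added after their values were seen. The procedure was also run on simulated data, whose variances were drawn from the model that limma fits to these arrays. A first version with the observed spreads gave more false calls than the nominal rate and was replaced after this was seen. The simulation therefore cannot show the rate of false calls in the real arrays. Alternatives were other filters (none, log2 7, the mean of the 6 arrays), median centring, quantile normalization, a variance trend, 9 or 27 arrays, a replicate block, each array left out in turn, and, for lists, the mean over probe sets and, added later, probe sets with no mark of shared sequence.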

Additional observations from a re-analysis of the deposited data

Results flagged for a closer look

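Results were listed here where the dose difference differed between experiments by a test of the difference itself. Groups of 3 arrays are too small for the test of a single outlying array. The difference between the dose contrasts at 3 and 11 days was called higher in 2134 probe sets (22.9%) and lower in 1221 (13.1%) in limma. Among the genes, the contrast at 3 days was further up for nspe-1 (3.48 ± 0.13, SE), ugt-25 (2.71 ± 0.22), lipl-1 (2.43 ± 0.21), nspe-7 (2.34 ± 0.14), F01D5.2 (2.29 ± 0.15) and ZK1290.5 (2.03 ± 0.13). The ugt-25 transcript was higher at 2.0 mM by 1.86 at 3 days and lower by -0.85 at 11 days. The level of nspe-1 at 11 days was 3.00 at 2.0 mM and 2.59 at 0.2 mM, near the floor of the scale. The nspe-7 transcript had a mean of 3.82 at both doses at 11 days, under log2 5 as well.

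The contrast at 3 days was further down for dod-3 (-3.95 ± 0.23), F22B5.5 (-3.31 ± 0.11), F36A4.2 (-3.19 ± 0.19), lys-3 (-2.90 ± 0.14), T16A9.5 (-2.79 ± 0.15) and C31H1.5 (-2.76 ± 0.14). At 11 days dod-3 had 7.85 ± 0.09 at 2.0 mM and 8.21 ± 0.10 at 0.2 mM (SD, n = 3), while F22B5.5, F36A4.2, T16A9.5 and C31H1.5 were all under log2 3 at both doses.

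The difference between the contrasts of HF and HF-HQ at 3 days was called higher in 1574 probe sets (16.9%) and lower in 1085 (11.6%). It was highest for nspe-1 (5.31 ± 0.24), nspe-7 (3.89 ± 0.19), rrn-3.1 (3.62 ± 0.81), ugt-63 (3.29 ± 0.21), F46F2.3 (2.63 ± 0.15) and R07E5.4 (2.55 ± 0.18). The value of rrn-3.1, a ribosomal RNA gene, came from HF-HQ arrays that spread widely, at 8.20 ± 1.21 with 2.0 mM and 11.81 ± 1.15 with 0.2 mM (SD, n = 3), and its difference with HF was 0.01 ± 0.06. The nspe-1 and nspe-7 genes had opposite dose differences with the preparations, 3.89 and 2.34 with HF and -1.42 and -1.55 with HF-HQ.

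It was lowest for clec-60 (-7.69 ± 0.28), ilys-3 (-5.67 ± 0.17), dod-3 (-4.37 ± 0.27), lys-3 (-4.26 ± 0.28), tsp-2 (-4.22 ± 0.30) and F53A9.8 (-3.96 ± 0.20). With HF-HQ clec-60 had 9.55 ± 0.03 at 2.0 mM and 2.37 ± 0.53 at 0.2 mM (SD, n = 3), and its difference with HF was -0.51 ± 0.09. The ilys-3 transcript had 10.21 ± 0.09 at 2.0 mM and 3.57 ± 0.30 at 0.2 mM HF-HQ (SD, n = 3). Both genes were under log2 5 at 0.2 mM HF-HQ, where the size of a difference depends on the background correction. The lys-3 transcript was under log2 5 at both doses of HF-HQ, with means of 3.12 at 2.0 mM and 2.77 at 0.2 mM. A dose difference of lys-3 with HF-HQ could therefore hardly be measured. The tetraspanin gene tsp-2 was higher at 2.0 mM HF-HQ by 1.45 ± 0.20 and lower at 2.0 mM HF by -2.77 ± 0.19.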

How the results depend on the processing

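In none of the 15 alternative fits was a called probe set called in the opposite direction. The count of probe sets higher at 2.0 mM was 1199 in the reported fit, 710 with a replicate block, and 589 to 1020 when single arrays were left out, with 616 without array 3 of 2.0 mM, 589 without array 1 of 0.2 mM and 715 without array 2 of 0.2 mM. The lower count ranged over 572 to 726 without single arrays and was 613 with the block. Of 1950 calls 1302 remained with the block. Deviations of arrays that share a replicate number correlated at 0.257, -0.3561 and -0.1252, and no array of 2.0 mM correlated best with its own number, so the numbers were not taken as pairs. The filter at log2 7, which tests fewer probe sets, gave 24 at least 2-fold higher and 176 lower, against 44 and 305, and without single arrays these were 38 to 49 and 303 to 308. For the 3 minus 11 days difference the counts without single arrays were 1775 to 2120 higher and 1051 to 1222 lower, and for HF minus HF-HQ 1173 to 1455 and 925 to 972. Median centring gave 2213 higher and 950 lower for HF minus HF-HQ, against 1574 and 1085. The share of higher calls in the dose contrast was 61.5%, and 50.6% without array 3 of 2.0 mM and 50.7% without array 1 of 0.2 mM. All 23 MSP genes were lower in all 15 fits. Of 685 list medians 26, in 14 lists, had the other sign, 21 of them within 0.1 of 0 on both sides. The others were infection response and CUB-like genes (0.01 with no filter, reported -0.26), lipases (0.01 with no filter, reported -0.20), metal response genes (-0.12 without shared probe sets, reported 0.01) and dod and dao genes (-0.16 with no filter and -0.13 at log2 7, reported 0.10). For these the cause was not tested. The call of ssp-19 (-1.36 ± 0.23) held in 12 of 13 settings that tested it.

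The 3 arrays per dose and values near the floor of the scale limit what can be seen in weakly expressed genes, and probe sets of gene families with similar sequences share signal.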

Other observations

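Some further probe sets and genes, chosen after their values were seen, had large differences between the doses. A probe set for pud-1.1 and pud-1.2, whose proteins are named for being upregulated in daf-2 mutants, had 10.15, 10.04 and 10.17 at 2.0 mM and 6.73, 6.83 and 6.95 at 0.2 mM, a log2 difference of 3.28 ± 0.07 (SE; limma adjusted p = 5.7e-07). One for pud-2.1 and pud-2.2 was at 10.64, 10.73 and 10.60 in the 2.0 mM arrays (3.08 ± 0.07, adjusted p = 5.7e-07). In untreated worms the pud-1.1 and pud-1.2 probe set had 6.36, 6.41 and 6.36. The noncoding RNA gene tts-1 was higher at 2.0 mM by 1.03 ± 0.08 (adjusted p = 8.3e-05), at 10.31, 10.28 and 10.53 against 9.41, 9.36 and 9.28, and the carbonic anhydrase gene cah-5 by 0.96 ± 0.09 (adjusted p = 0.00018). The chloride channel gene glc-1, which encodes a glutamate-gated subunit, was higher by 1.02 ± 0.14 (adjusted p = 0.00174).

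Among the lower genes, sams-5, of the S-adenosylmethionine synthetase family, had 4.88, 4.96 and 4.92 at 2.0 mM and 7.19, 7.39 and 7.51 at 0.2 mM (-2.44 ± 0.09, adjusted p = 1.7e-06). Its 2.0 mM arrays were all under log2 5, so that it had passed the filter through 0.2 mM only. Of the nsph peptide genes, which were in no list, nsph-1.2 was not called (-0.19 ± 0.07, adjusted p = 0.12). Besides nsph-3.1, nsph-2 was lower by -2.40 ± 0.24 and nsph-3.2 by -2.53 ± 0.08 (adjusted p = 0.00029 and 9.8e-07), and a probe set of nsph-4.1 and nsph-4.2 by -2.82 ± 0.12 (adjusted p = 2.6e-06).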
